A study of Mus musculus with 8 samples.

Results

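The genes described here are 36 genes of the oxygen response and of glycolysis, out of 19083 genes in a table of RNA levels from mouse palatal shelves. They were chosen by name. The set has 8 genes of oxygen sensing and of the hypoxia-inducible factor (HIF), 9 known HIF target genes outside glycolysis, and 19 genes of glucose uptake and glycolysis. Each of the 36 symbols matched 1 Ensembl gene in the table, and 34 of them were expressed highly enough to be tested, at 1 FPKM or more in 2 or more libraries. FPKM is the fragment count per kilobase of gene and per unit of sequencing depth, so that levels can be compared between genes.

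The shelves are the paired outgrowths that later fuse into the secondary palate. They were dissected at embryonic day 13.5 from embryos labelled C57BL/6, and each embryo gave 1 library of poly(A)-selected RNA. The groups were Pax9-/- embryos (called null here, n = 4), Pax9+/+ embryos (wild type, n = 2) and Pax9+/- embryos (heterozygote, n = 2), and the wild types and heterozygotes together form the control (n = 4). No treatment is given in the labels of these embryos. Pax9 encodes a paired-box transcription factor required for the palate and the teeth. The labels do not say which part of Pax9 the null allele lacks, nor whether embryos shared a litter, so p-values measure the spread between these 8 libraries.

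In cells with enough oxygen, the prolyl hydroxylases Egln1, Egln2 and Egln3 modify the HIF alpha subunits Hif1a and Epas1. The Vhl protein then binds the modified subunits and marks them for breakdown, while the hydroxylase Hif1an blocks their activity. When oxygen is short, the alpha subunits persist, pair with Arnt and switch on genes for vessel growth, glucose uptake and glycolysis. Much of this control acts on protein, which RNA levels do not show. Egln3 is itself a known HIF target, and so are many genes of glycolysis.

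The libraries held between 37069101 and 51210254 reads assigned to genes. Pax9 itself was at 8.49, 7.19, 9.81 and 10.3 FPKM in null libraries 1 to 4, at 35.8 and 27.2 in wild-type libraries, and at 30.1 and 26.2 in heterozygotes, so the null libraries were the lowest, at a log2 change of −1.68 ± 0.13 (SE; limma, adjusted p = 0.000556). Markers of palatal mesenchyme, such as Osr2, Prrx1 and Pdgfra, summed to between 1078 and 1337 FPKM per library. Skeletal muscle markers summed to 337, 352, 145 and 83.7 FPKM in null libraries 1 to 4, compared with 110 and 236 for the wild types and 75.2 and 75.8 for the heterozygotes. Red blood cell markers summed to between 1343 and 1636 FPKM in null and between 1529 and 2365 in control libraries. Cartilage markers summed to between 159 and 179 FPKM in null and between 204 and 231 in control libraries, without overlap, and 2 of 8 tested (Col2a1 and Matn4) fell. Of 10 mesenchyme markers 1 rose (Osr2) and 1 fell (Msx1), and 0 of 10 muscle and 0 of 9 red blood cell markers passed by limma or by voom. In such bulk samples, fewer cells of a type and less RNA per cell cannot be told apart. The part of these cell types in the results below was not tested.

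Egln3 (ENSMUSG00000035105) was the only tested member called changed in the null shelves, and it rose. It was at 6.18, 6.02, 5.78 and 5.49 FPKM in null libraries 1 to 4, at 4.27 and 4.18 in wild-type libraries, and at 4.04 and 4.08 in heterozygotes. Every null library was above every control library, and the 4 controls lay close together. The mean was 5.87 ± 0.301 FPKM in null and 4.14 ± 0.102 in control (SD, n = 4 each), a log2 change of 0.45 ± 0.06 (SE; limma, adjusted p = 0.0144). The change is taken on log2(FPKM + 0.5), which slightly understates it, and amounts to 1.37-fold. Egln3 was covered by between 418 and 804 reads per library. Its coding sequence shares no window of 50 bases with another annotated gene, and its exons overlap no other gene.

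The log2 change of Egln3 lay between 0.42 and 0.51 in every alternative run, while its adjusted p fell on either side of the threshold of 0.05. Among the embryos whose titles carry the number 44 the log2 change was 0.43, and among those with 56 it was 0.48, with adjusted p of 0.964 and 0.579 in these sets of 4 libraries. Leaving out 1 library gave changes from 0.43 to 0.48. The adjusted p passed the threshold without null 4 (0.0253), heterozygote 2 (0.0361) or wild type 2 (0.0466). It missed it without null 3 (0.0508), null 1 (0.052), wild type 1 (0.0522), heterozygote 1 (0.0598) or null 2 (0.06). Against the wild types alone the log2 change was 0.43 (limma, adjusted p = 0.0652) and against the heterozygotes alone 0.48 (adjusted p = 0.0948), with both comparisons using the same null libraries. Heterozygotes and wild types differed by −0.05 (adjusted p = 0.721).

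**Figure D1:**
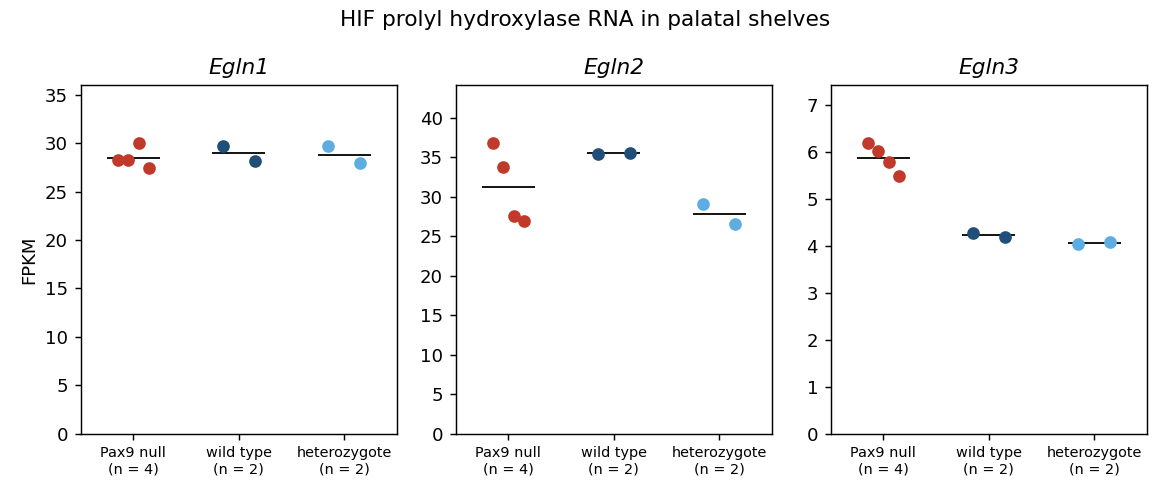
RNA level (FPKM, y axis from 0) of the 3 HIF prolyl hydroxylase genes in Pax9 null (n = 4), wild-type (n = 2) and heterozygote (n = 2) libraries. Each point is 1 library and each line a group mean. Egln3 is above 5.4 FPKM in each null library and below 4.3 in each control, while Egln1 overlaps between groups and Egln2 spreads as widely within null as between wild types and heterozygotes.

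The sister enzymes did not pass the test. Egln1, the main oxygen sensor for HIF in most tissues, was at 28.3, 28.3, 30.0 and 27.4 FPKM in null libraries 1 to 4, at 29.7 and 28.2 in wild-type libraries, and at 29.7 and 27.9 in heterozygotes. Its log2 change was −0.02 ± 0.05 (SE; limma, adjusted p = 0.999). Egln2, a nuclear member of the family, was at 36.8, 33.8, 27.6 and 26.9 FPKM in null libraries 1 to 4, at 35.4 and 35.6 in wild-type libraries, and at 29.1 and 26.5 in heterozygotes. Null 1 and null 2 were thus near the wild types and null 3 and null 4 near the heterozygotes. Its log2 change between null and control was −0.02 ± 0.13 (SE). Egln3 is the least abundant of the family and made up 8.95% ± 0.25 of the summed FPKM of the 3 genes in null and 6.43% ± 0.38 in control (SD, n = 4 each).

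The promoter windows of the 3 genes are printed to show how they differ in the core letters of the hypoxia response element, ACGTG or GCGTG, to which HIF binds. Each covers 250 bases before to 50 after the annotated start in RefSeq on GRCm38.p6, is read 5′ to 3′ along the gene, and carries in capitals the motif on either strand, where a motif on the other strand reads CACGT or CACGC. The windows lie at chr8:124949205-124949504 for Egln1, chr7:27166753-27167052 for Egln2 and chr12:54203825-54204124 for Egln3, all on the minus strand. The window of Ldha, which turns pyruvate into lactate and is a textbook HIF target, at chr7:46845554-46845853 on the plus strand, is added for its many motifs.
Egln1: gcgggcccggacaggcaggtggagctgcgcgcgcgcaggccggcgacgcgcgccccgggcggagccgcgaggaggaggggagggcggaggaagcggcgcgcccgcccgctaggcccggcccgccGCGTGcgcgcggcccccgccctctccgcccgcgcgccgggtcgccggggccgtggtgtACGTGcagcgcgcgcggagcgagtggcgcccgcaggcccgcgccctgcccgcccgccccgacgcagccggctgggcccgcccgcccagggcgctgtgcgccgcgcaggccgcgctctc
Egln2: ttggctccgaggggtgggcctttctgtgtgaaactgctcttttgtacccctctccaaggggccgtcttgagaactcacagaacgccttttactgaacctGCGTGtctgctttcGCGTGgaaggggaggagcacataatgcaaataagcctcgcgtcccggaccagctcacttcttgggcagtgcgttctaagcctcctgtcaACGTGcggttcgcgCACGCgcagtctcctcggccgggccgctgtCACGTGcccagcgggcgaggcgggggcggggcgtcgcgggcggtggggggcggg
Egln3: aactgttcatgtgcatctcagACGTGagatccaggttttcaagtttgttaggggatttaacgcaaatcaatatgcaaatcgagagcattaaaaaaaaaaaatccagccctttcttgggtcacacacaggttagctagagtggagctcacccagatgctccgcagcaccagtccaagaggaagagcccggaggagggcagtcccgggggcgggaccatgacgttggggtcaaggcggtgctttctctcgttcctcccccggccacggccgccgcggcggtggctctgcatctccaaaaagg
Ldha: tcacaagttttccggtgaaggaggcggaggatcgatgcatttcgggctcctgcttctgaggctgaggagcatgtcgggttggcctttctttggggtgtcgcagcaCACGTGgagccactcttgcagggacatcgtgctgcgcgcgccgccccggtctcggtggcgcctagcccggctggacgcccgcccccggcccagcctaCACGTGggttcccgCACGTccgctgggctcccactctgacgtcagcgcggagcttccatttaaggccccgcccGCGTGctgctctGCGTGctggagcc
Egln3 has 1 ACGTG, starting at base 22 of the window, and no GCGTG. Egln1 has 1 of each motif, Egln2 has 3 of each, and Ldha has 5 ACGTG and 2 GCGTG, where the palindrome CACGTG counts on both strands. RefSeq gives Egln2 and Ldha a further window each, with fewer motifs. Of 49 windows for 34 matched members, 26 (53.1%) held ACGTG and 39 (79.6%) held either motif. Of all 32851 windows 19.6% held ACGTG and 43.8% held either. Of the 12631 windows of tested genes 24.9% held ACGTG and 62.1% held either. The members were chosen by name, many of them as known HIF targets. A match describes letters and is no proof of a binding site.

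Egln3 and Pax9 lie on the same chromosome. In mm10, Egln3 spans positions 54178981 to 54203860 of chromosome 12 on the minus strand and Pax9 positions 56691767 to 56712822, so that 2.49 Mb separate them. Of 39 tested genes within 5 Mb of Pax9, Egln3 was the 1 gene called changed, beside 0.419% of all tested genes and 4 of 479 on chromosome 12 without Pax9. In the interval 7 genes (17.9%) had an unadjusted p under 0.05, beside 7.15% of all 13600 tested genes. On the whole of chromosome 12 without Pax9, 48 tested genes had such a p. Within 5 Mb of Pax9, null and control did not overlap for 6 of the 39 tested genes, beside 5.13% of all tested genes. The nearest tested genes on either side of Egln3 did not pass. Npas3, a neuronal transcription factor gene, was at 2.82 ± 0.327 FPKM in null and 2.71 ± 0.232 in control (SD, n = 4 each), and Sptssa, a subunit of the enzyme that starts sphingolipid synthesis, was at 47.3 ± 4.43 and 46.2 ± 2.37. Their log2 changes were 0.05 and 0.03.

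The other 6 genes of the interval with an unadjusted p under 0.05 lay on both sides of 0, did not pass, and are named after their values were seen. Rpl31-ps17, a ribosomal protein pseudogene, had the lowest p of them, at 0.676 FPKM in null and 1.28 in control without overlap, a log2 change of −0.61 (limma, adjusted p = 0.0988). Ap4s1, an adaptor subunit for vesicle traffic, was at 9.32 FPKM in null and 12.1 in control without overlap, a log2 change of −0.36 (limma, adjusted p = 0.123). Heatr5a, at 12.7 against 10.8 FPKM without overlap, had a change of 0.22 (adjusted p = 0.289). Gm15524, a transcript whose span overlaps that of Pax9, was at 3.93 against 3.02 FPKM with overlap of the groups (adjusted p = 0.428). Lrfn5, at 0.955 against 0.679 FPKM without overlap, had a change of 0.30 (adjusted p = 0.540), and Gm23394, at 3.30 against 1.61 FPKM with overlap, had 0.86 (adjusted p = 0.593). Whether DNA linked to the mutant allele has a part in these values was not tested, and in this design linkage and loss of Pax9 cannot be told apart.

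**Figure D2:**
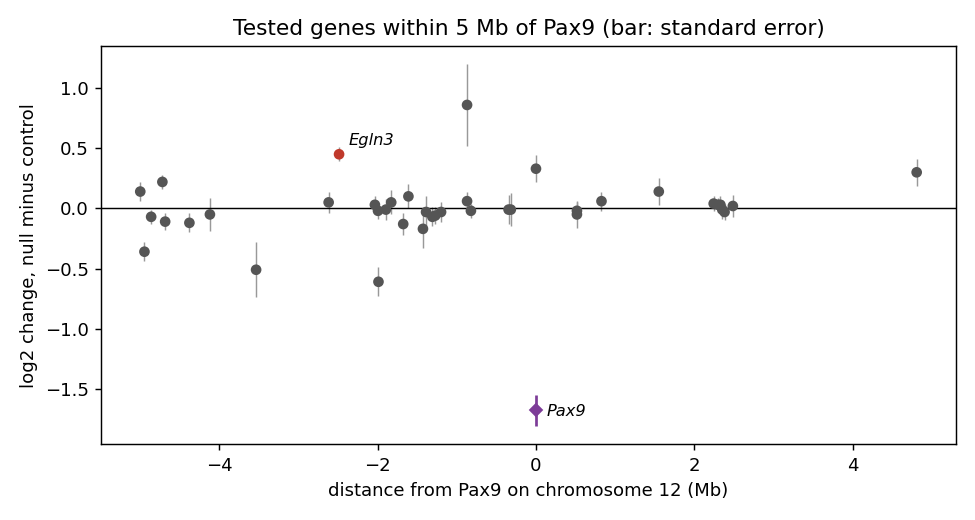
Log2 change of RNA (null minus control, y axis, with standard error) of the 39 tested genes within 5 Mb of Pax9, against the distance from Pax9 in Mb (x axis, negative before the gene); Pax9 is the diamond. Egln3, in red and 2.49 Mb before Pax9, is the neighbour past the threshold, and most of the others lie near 0.

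Of the HIF subunits and the remaining regulators, 0 of 5 passed by limma or by voom, and 0 had an unadjusted p under 0.05. Hif1a, the main alpha subunit, was at 30.2, 32.0, 35.4 and 34.4 FPKM in null libraries 1 to 4, at 34.1 and 31.7 in wild-type libraries, and at 36.7 and 37.0 in heterozygotes. The groups overlapped, and the log2 change was −0.08 ± 0.07 (SE; limma, adjusted p = 0.948). Epas1, the alpha subunit best known from endothelium, was at 8.40, 8.88, 8.77 and 8.41 FPKM in null and at 7.41, 7.97, 8.03 and 8.42 in control libraries. Heterozygote 2, at the top of the controls, was level with null 1 and null 4. The log2 change was 0.11 ± 0.05 (SE; adjusted p = 0.778). Endothelial markers summed to between 152 and 162 FPKM in null and between 137 and 166 in control libraries. Arnt, Vhl and Hif1an ranged from 15.9 to 17.8, from 24.4 to 27.0 and from 18.1 to 19.9 FPKM over the 8 libraries, with log2 changes of 0.05, 0.04 and 0.05.

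Counted over all 34 tested members, 1 rose, 0 fell and 33 did not pass (limma, adjusted over 13600 genes). Among all tested genes 57 were called, or 0.419%, of which 0.228% of all were higher and 0.191% lower in null. By limma, 2 of the 34 members had an unadjusted p under 0.05, Egln3 and Pdk1, beside 7.15% of all tested genes. On recovered reads, limma's voom also called 1 member. Null and control libraries were free of overlap for 1 of the 34 members, Egln3, and for 5.13% of all tested genes. Apart from Egln3, the log2 changes of the members lay between −0.13 and 0.21. Their median was 0.03 over all 34, beside −0.01 over all tested genes.

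Taken by genotype of the control, 0 of 34 members passed against the wild types and 0 against the heterozygotes, by limma and by voom. Against the wild types 0.382% of all tested genes were called (0.184% higher and 0.199% lower in null), and against the heterozygotes 0.0809% (0.0515% higher and 0.0294% lower). An unadjusted p under 0.05 was found for 5 members against the wild types, 2 higher and 3 lower in null, and for 11.6% of all tested genes. Against the heterozygotes it was found for 7 members, all higher in null, and for 6.95% of all tested genes. The median member difference was −0.03 against the wild types and 0.10 against the heterozygotes. Both wild types lie on the same side of the axis described further on and both heterozygotes on the other, while the null libraries lie on both. Each of these comparisons thus also carries a difference between the sides, which cannot be told apart from the genotype of the control. With the side of this axis as a block in the null against control fit, 1 member passed, Egln3, and 1.29% of all tested genes. That side was drawn from the spread left after this same fit, so as a block it lowers the spread by construction. These calls are thus no independent support.

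**Figure D3:**
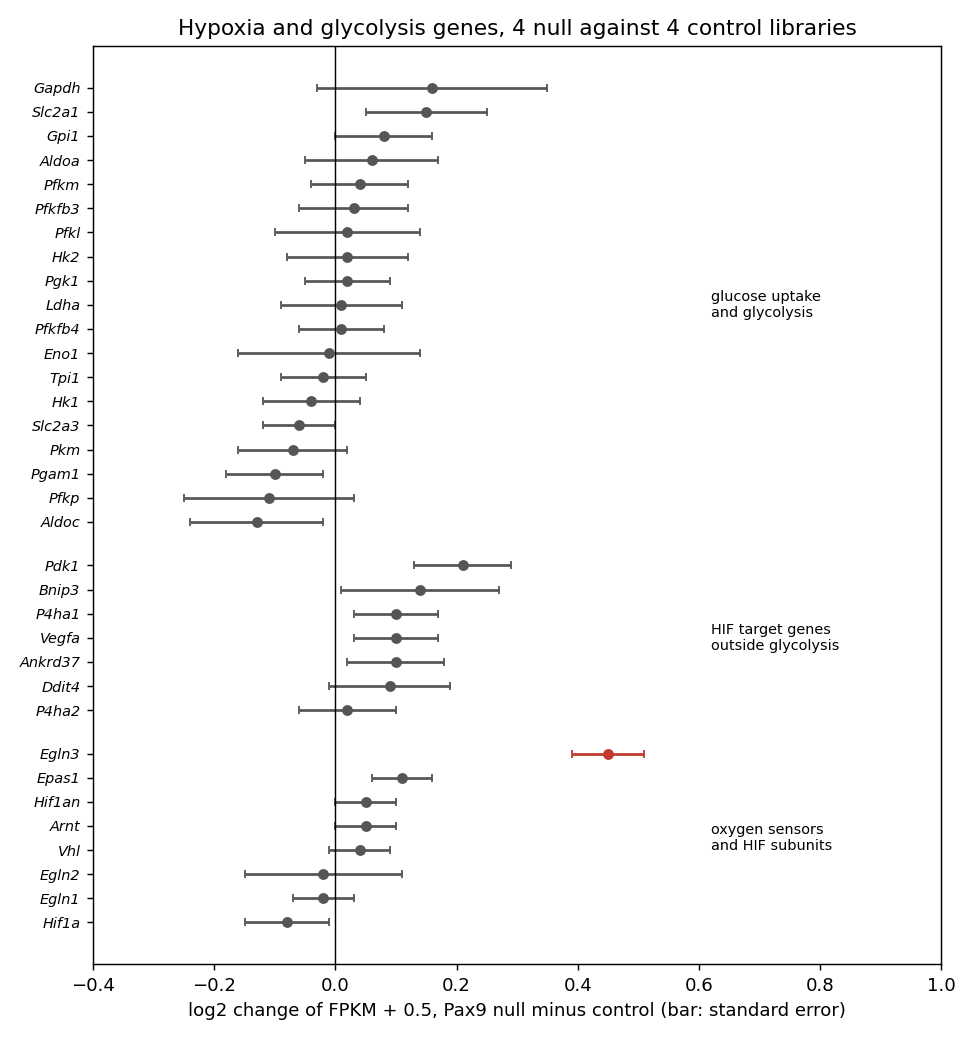
Log2 change of FPKM + 0.5 between 4 Pax9 null and 4 control libraries (x axis) for the 34 tested members, in their 3 groups, with standard errors as bars. Egln3, in red at 0.45, is the gene past the threshold; all others lie between −0.13 and 0.21.

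Of the known HIF targets outside glycolysis 0 of the 7 tested passed, by limma or by voom. Before adjustment 1 had a p under 0.05 by limma, beside 7.15% of all tested genes. All 7 had a log2 change above 0, as did 6226 of all 13600 tested genes, with a median of 0.10, beside −0.01 for all tested genes. Against the wild types alone 5 were above 0 and 2 below, and against the heterozygotes alone 7 were above 0. The 7 genes share these libraries and are not independent. The median was 0.004 for null 1 and null 2 against the wild types and 0.19 for null 3 and null 4 against the heterozygotes. Pdk1 encodes a kinase that inhibits pyruvate dehydrogenase. It was at 8.58, 10.6, 9.50 and 11.2 FPKM in null libraries 1 to 4, at 8.43 and 8.50 in wild-type libraries, and at 8.18 and 8.93 in heterozygotes. Null 1 lay among the controls and the other null libraries above them. The log2 change of 0.21 ± 0.08 (SE) did not pass (limma, adjusted p = 0.557).

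Bnip3, which acts in the removal of mitochondria, had the widest spread of the tested targets. It was at 4.38, 5.43, 6.26 and 7.23 FPKM in null libraries 1 to 4, at 4.85 and 4.74 in wild-type libraries, and at 5.52 and 5.54 in heterozygotes, so that both the lowest and the highest value were in null libraries. Its log2 change was 0.14 ± 0.13 (SE; limma, adjusted p = 0.948). In the annotation 72.5% of its coding 50-base windows occur in 4 other genes, all pseudogenes. The growth factor Vegfa, which attracts vessels, was at 34.4, 29.4, 31.9 and 33.3 FPKM in null libraries 1 to 4, at 32.3 and 29.0 in wild-type libraries, and at 30.6 and 28 in heterozygotes. Its groups overlapped, at a log2 change of 0.10 ± 0.07 (SE; adjusted p = 0.872).

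Ddit4, a stress-induced inhibitor of mTOR signalling, was the most abundant of these 9 genes. It was at 56.7, 58.3, 51.0 and 55.2 FPKM in null libraries 1 to 4, at 59.8 and 56.5 in wild-type libraries, and at 50.5 and 43.0 in heterozygotes. All null values thus lay within the range of the controls. P4ha1 and P4ha2, catalytic subunits of the enzyme that hydroxylates collagen prolines, were at 22.2 ± 1.77 against 20.7 ± 1.37 and 8.88 ± 0.547 against 8.80 ± 0.993 FPKM (SD, n = 4 each). Ankrd37, an ankyrin-repeat gene, was at 3.48 ± 0.379 against 3.21 ± 0.146 FPKM; 26.4% of its exon bases overlap genes on the other strand, which the kit does not separate.

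The 2 untested members were barely expressed in any library. Adm, which encodes the vasodilator adrenomedullin, ranged from 0.267 to 0.715 FPKM and rested on between 18 and 38 reads. Car9, a carbonic anhydrase of the cell surface that is strongly induced by hypoxia in many cell types, ranged from 0.212 to 0.523 FPKM, on between 19 and 46 reads. Differences between groups were not judged at this depth.

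Genes of glycolysis ranged from high to low levels, with a median over the 8 libraries of 251 FPKM for Pkm and 0.805 FPKM for Pfkp. Some steps had 1 main enzyme form and others a pair. Pkm, which makes pyruvate at the last step, was the most abundant member at 272, 258, 227 and 230 FPKM in null libraries 1 to 4, at 280 and 284 in wild-type libraries, and at 243 and 229 in heterozygotes. Tpi1, which interconverts the triose phosphates, followed at 113 to 135 FPKM over the 8 libraries, and then Ldha at 85.2 to 112. Aldoa made up 98.7% ± 0.087 of the summed FPKM of the aldolases Aldoa and Aldoc in null and 98.4% ± 0.15 in control (SD, n = 4 each). The muscle and liver forms of phosphofructokinase, Pfkm and Pfkl, were nearly level, at 50.6% ± 0.70 and 48.2% ± 1.1 of the summed FPKM in null, while the platelet form Pfkp gave 1.22% ± 0.39.

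Of the FPKM summed over the glucose transporters Slc2a1 (GLUT1) and Slc2a3, Slc2a1 made up 88.6% ± 0.93 in null and 87.0% ± 1.7 in control (SD, n = 4 each). Other transporters are not in this sum, and glucose uptake was not measured. Hk1 and Hk2, the hexokinases that trap glucose in the cell, were close to each other, with Hk1 at 52.2% ± 1.8 in null and 53.4% ± 3.9 in control. Pfkfb3 and Pfkfb4, which set the level of the activator of phosphofructokinase, were at 6.06 ± 0.657 and 5.15 ± 0.251 FPKM in null and 5.92 ± 0.460 and 5.12 ± 0.470 in control.

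No gene of glucose uptake or glycolysis passed between null and control: 0 of 19 rose and 0 fell, by limma and by voom, and by limma 0 had an unadjusted p under 0.05. The median log2 change was 0.01, with 11 genes above 0 and 8 below. Slc2a1 was at 42.8, 39.3, 39.8 and 39.0 FPKM in null libraries 1 to 4, at 44 and 35.8 in wild-type libraries, and at 36.2 and 29.9 in heterozygotes. The wild types lay on either side of the null libraries and the heterozygotes below them, at a log2 change of 0.15 ± 0.10 (SE; limma, adjusted p = 0.888). Aldoc, the brain form of aldolase, was at 1.11, 1.31, 1.04 and 1.18 FPKM in null and at 1.61, 1.41, 1.11 and 1.16 in control libraries, a log2 change of −0.13 ± 0.11 (SE). Gpi1, the isomerase of glucose phosphate, was at 41.3 ± 2.97 against 39.1 ± 4.10 FPKM (SD, n = 4 each).

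Many genes of glycolysis divided the libraries in another way than by null genotype. After the group means were taken away, the leading component of the remaining spread held 46.2% of it, and along this axis null 1, null 2 and both wild types (side A) stood apart from null 3, null 4 and both heterozygotes (side B). Eno1, the enolase, was at 25.7 and 24.6 FPKM in null 1 and null 2 and at 26.0 and 25.2 in the wild types, but at 17.9 and 19.3 in null 3 and null 4 and at 19.1 and 18.1 in the heterozygotes. The sides did not overlap, and side A was 1.37 times side B in mean FPKM. Within the null genotype alone that ratio was 1.35. Pfkl, at 38.3 against 30.3 FPKM in mean on the sides, and Aldoa, at 93.9 against 76.5, showed the same order, as did Ldha, at 108 against 88.8.

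In all, 8 of 19 genes of glucose uptake and glycolysis (42.1%) were higher on side A without overlap and 0 were higher on side B, beside 17.1% and 16.7% of all tested genes. Over all 34 tested members the share without overlap in either direction was 35.3%, close to the 33.9% of all tested genes. These are descriptions without a test, since the axis was drawn from these values. The sides match the order of the deposited samples: side A is the first 4 samples in the series and in the table, and side B the last 4. The labels used here do not say what that order reflects, and its part in these differences was not tested. The wild types are in the earlier set and the heterozygotes in the later, so side and genotype cannot be told apart for them. Heterozygotes against wild types gave 0 of 34 members called by limma and 0 by voom, with 0 of 13600 genes called, and 12 members, all lower in heterozygotes, had an unadjusted p under 0.05. Of all tested genes 11.5% had such a p in that comparison. Its largest log2 rise in heterozygotes was that of Xist (3.88), a gene of the X chromosome. The largest fall was that of Kdm5d (−2.37), a gene of the Y chromosome. Xist also had the largest rise in null against the wild types (2.13). The part of embryo sex in these comparisons was not tested.

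The axis moved with base composition. Across the 13418 tested genes with a known GC content, GC content and the log2 difference between the sides had a Spearman correlation of 0.80, and across the 34 members it was 0.70. Genes are not independent replicates and share these libraries, so no p is given. After a GC trend was removed from each library, the median difference of the 19 glucose and glycolysis genes went from 0.17 to 0.06 on the log2 scale. Eno1 went from 0.44 to 0.31, Ldha from 0.28 to 0.22 and Pfkl from 0.34 to 0.15. The count of genes above 0 was 15 of 19 before and 15 of 19 after. These were not all the same genes, since Pfkfb3 went from 0.01 to −0.05 and Slc2a3 from near 0 to 0.02. Other members moved away from 0, with Pgam1 going from −0.17 to −0.28, Gapdh from −0.05 to −0.19, Egln1 from near 0 to −0.16 and Vegfa from 0.01 to −0.12. Hif1a, the member with the lowest GC content at 41.0%, was lower on side A by a log2 difference of −0.16 before and 0.06 higher after. Egln3, at 51.4% GC, had a difference of 0.08 between the sides before and 0.04 after. Markers of several cell types also moved with the sides, and their part in the difference of the glycolysis genes was not tested. Red blood cell markers summed to between 1563 and 2365 FPKM on side A and between 1343 and 1547 on side B, without overlap, and 8 of 9 tested markers were higher on side A in mean, with a median log2 difference of 0.35. All 10 muscle markers were higher on side A in mean, with a median of 1.27, but their sums overlapped, at 110 to 352 FPKM on side A and 75.2 to 145 on side B. Of 10 macrophage markers 8 were higher on side A, with overlapping sums of 52.9 to 74.3 and 47.9 to 57.1 FPKM. Neuron markers went the other way, with 1 of 9 higher on side A and a median of −0.60, and overlapping sums.

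**Figure D4:**
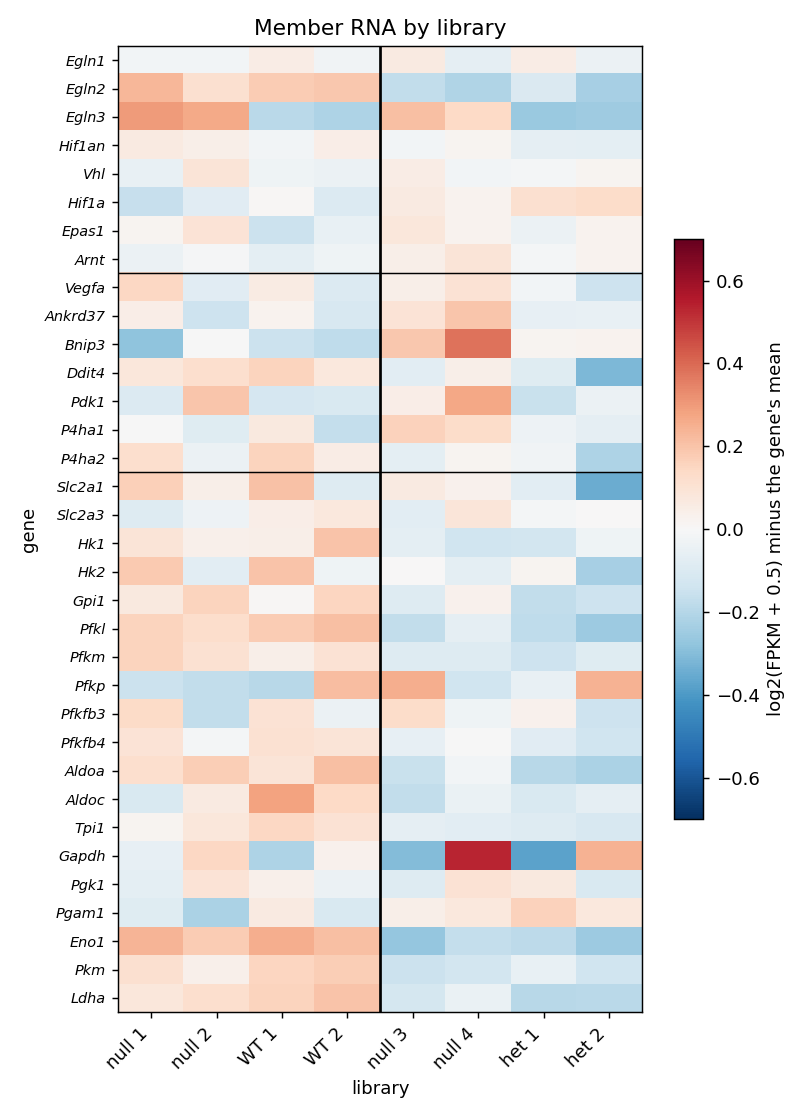
Log2(FPKM + 0.5) of the 34 tested members in each library (columns) minus the mean of the gene over the 8 libraries, in colour; the vertical line separates side A (null 1, null 2, WT 1 and WT 2) from side B (null 3, null 4, het 1 and het 2), where WT is wild type and het heterozygote. The Egln3 row is high in all 4 null libraries, while rows such as Eno1, Pfkl and Aldoa change at the line.

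Some of the best-known glycolysis genes were listed at very low levels. Gapdh, usually among the most abundant transcripts of any cell, stood at 2.00, 2.38, 1.61 and 3.26 FPKM in null libraries 1 to 4, at 1.74 and 2.16 in wild-type libraries, and at 1.51 and 2.58 in heterozygotes. That is far below the 113 FPKM or more of Tpi1, the neighbouring step of the pathway. Its values had the widest spread of all tested members, a standard deviation of 0.30 on the log2 scale, with the highest in null 4. Pgk1 and Pgam1, the enzymes of the next steps, were also low, at 3.74 to 4.39 and 4.97 to 6.63 FPKM.

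These genes share most or all of their coding windows with other annotated genes. For Gapdh 94.2% of the coding windows of 50 bases occur in other annotated genes, 217 of them, of which 212 are pseudogenes. For Pgk1 and Pgam1 all windows (100%) do, in 5 and 4 genes. The most repeated window is shown for Gapdh, since a read from it fits several places in the genome. It covers coding bases 493 to 542 and occurs in 83 other genes (GENCODE M21, chromosome 6).
Gapdh: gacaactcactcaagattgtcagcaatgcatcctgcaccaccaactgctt
Eno1 had 83.3% such windows, Pkm 52.9%, Gpi1 32.4%, Ldha 28.4%, Aldoa 16.8% and Tpi1 13.7%, while the 10 other genes of the group had 0%. How the authors treated reads with several matches is not given in the sources used here, so that the part of read loss in these levels was not tested. The levels of the genes with shared windows are uncertain for that reason.

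**Figure D5:**
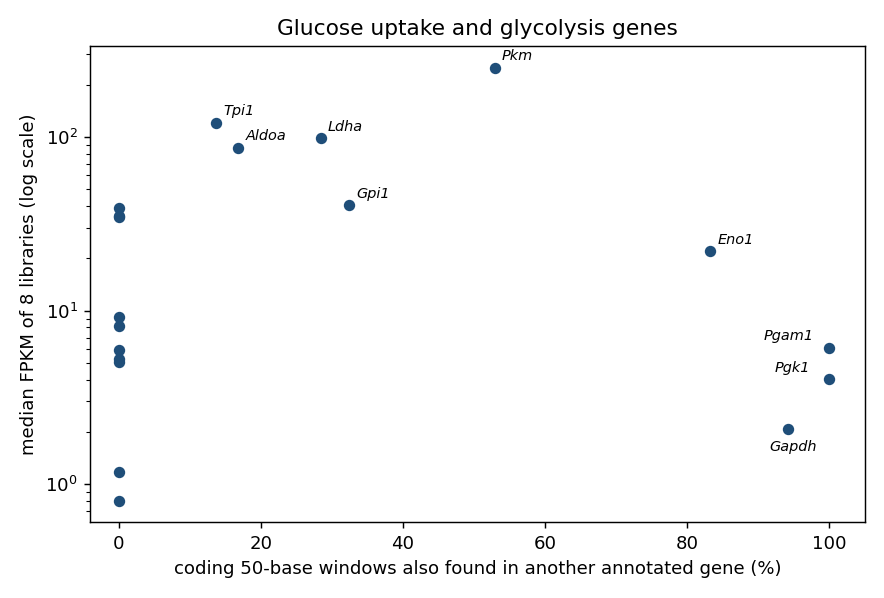
Median RNA level over the 8 libraries (FPKM, log scale, y axis) of the 19 genes of glucose uptake and glycolysis against the percent of their coding 50-base windows that occur in another annotated gene (x axis). Gapdh, Pgk1 and Pgam1, with 94.2% or more shared windows, are under 7 FPKM; Pkm, at 52.9%, is the highest.

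Other genes of the pathway, listed by name, were examined in the same way. Of 13 further genes of oxygen sensing and HIF turnover, such as Cul2, Cited2 and Siah2, 0 passed in either direction by limma or by voom and 0 had an unadjusted p under 0.05, with a median log2 change of −0.02. Cited2, which competes with HIF for a coactivator, had the largest change there, −0.11, at 31.2 ± 2.35 against 33.6 ± 0.590 FPKM (SD, n = 4 each), followed by Elob, a partner of Vhl, with −0.08, at 151 ± 6.85 against 160 ± 11.3 FPKM. Of 27 tested further HIF targets 0 passed by limma or by voom, and 19 were above 0 and 8 below, with a median of 0.05. By limma 3 of them had an unadjusted p under 0.05, beside 7.15% of all tested genes. Car12, a carbonic anhydrase, was at 2.16, 1.70, 2.33 and 1.49 FPKM in null libraries 1 to 4, at 3.51 and 3.49 in wild-type libraries, and at 3.06 and 2.59 in heterozygotes, lower in every null library. Its log2 change was −0.60 ± 0.13 (SE; limma, adjusted p = 0.140). Lox, the enzyme that cross-links collagen, was at 30.7, 31.4, 30.4 and 27.3 FPKM in null and at 25.9, 22.4, 26.7 and 21.8 in control libraries, higher in every null library, with a log2 change of 0.30 (adjusted p = 0.223).

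Of 18 tested further genes of glycolysis, pyruvate and lactate handling 0 passed by limma or by voom and 0 had an unadjusted p under 0.05, at a median of −0.03. Pgam2, the muscle form of phosphoglycerate mutase, had the largest difference, with 7.75, 8.44, 3.81 and 3.30 FPKM in null libraries 1 to 4, against 3.27 and 5.93 FPKM for the wild types and 2.39 and 3.03 for the heterozygotes. Its high libraries, null 1, null 2 and wild type 2, were those with the highest muscle marker sums, and its log2 change was 0.57 ± 0.33 (SE; adjusted p = 0.840). Slc2a12, a further glucose transporter, was at 1.66 ± 0.0915 against 1.47 ± 0.0927 FPKM.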

How the data were processed

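RNA of 8 mouse palatal shelf samples was measured by sequencing. The deposited values are FPKM for 19083 Ensembl genes, as the authors computed them; how they were counted is not stated in the labels. The submitters' processing notes name Novoalign 2.08.03, DESeq2 and the build mm10, without a role for each. From the spacing of the values, every gene came out as whole reads in each library, within 0.03 of a read, which gave the depth. Columns of other samples numbered 0.

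Names and positions came from GENCODE M21 on GRCm38, where 18752 identifiers were found and 331 were not. Genes at 1 FPKM or more in 2 or more libraries (13600) were put on the scale log2(FPKM + 0.5) and tested by limma 3.58.1, run under R 4.3.3 (empirical Bayes with a mean-variance trend, Benjamini-Hochberg adjustment over all tested genes, two-sided, called under 0.05). A fit with 2 groups compared null with control and a fit with 3 groups gave the other comparisons. The fit was also run on simulated reads, drawn separately for each gene and library. These had neither the main axis nor the GC trend, so they cannot show how the fit behaves with them. Replicate numbers follow sample order and only name libraries. Members, lists and tests were chosen with earlier results of these data known. Described in full are Pax9, called members, and in each group the 3 highest, the 3 most changed and the most variable members, and of the other lists the called genes and the 2 largest changes. Summaries used Python 3.11.15 and pandas 2.3.3. Alternatives changed pseudocount, filter, scaling, GC trend, blocks and libraries.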

Additional observations from a re-analysis of the deposited data

Results flagged for a closer look

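Among the 68 groups of 4 libraries checked (null and control, for 34 members), 1 held a library far from the rest, where about 5% would be flagged by chance. Pfkp, the platelet form of phosphofructokinase, was at 1.16 FPKM in null 3 and at 0.735 to 0.765 FPKM in the other null libraries, a gap of 0.929 of the whole range of the group. Among the controls, wild type 2 and heterozygote 2 were near null 3, at 1.12 and 1.15 FPKM. Wild type 1 and heterozygote 1 were at 0.718 and 0.844 FPKM. The effect of the null genotype was also compared between title numbers and between sides of the main axis, and no member of the 34 passed in a limma interaction test (1 member with an unadjusted p under 0.05 in each). The same tests called 0 of all 13600 genes, and an unadjusted p under 0.05 was found for 1.54% of them by title number and 0.941% by side. The sides were drawn from these same values, so the test by side cannot be read as independent.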

How the results depend on the processing

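The direction of the Egln3 change was the same in all 23 alternatives, with log2 changes from 0.42 to 0.51 and adjusted p from 0.00205 to 0.964. Its call was lost within title number 44 (0.43) or 56 (0.48), within side A (0.48) or side B (0.43), each with 4 libraries, and in 5 of 8 leave-outs, which gave 0.43 to 0.48; with it the count of changed members went from 1 to 0 there (leave-outs 0 to 1). After removal of the GC trend, null against wild type and null against heterozygote each gave 1 changed member, Egln3, in place of 0. The count of changed genes over the table was 57; it was 35 at a mean FPKM of at least 5, 157 after removal of the GC trend, 176 with the side as a block, 0 and 4 within title numbers 44 and 56, 2 and 3 within sides A and B, and 16 to 52 in the leave-outs (omitting null 1, 2 or 3 left 21, 17 or 29, omitting wild type 1 or 2 left 16 or 28, and omitting heterozygote 1 left 28). With the title number as a replicate block it was 47, and Egln3 had an adjusted p of 0.0268; the labels do not say what the number marks, and null and control libraries with the same number correlated in their deviations by a median of 0.01, against −0.04 for other pairs. The sides were drawn from these same values, so the count with the side as a block rests on a spread lowered by construction. The median of the 7 HIF targets was 0.004 within side A and 0.19 within side B, and the cause was not tested. The median of the oxygen sensors ranged from 0.03 to 0.05 and that of glycolysis from −0.06 to 0.07. The other 33 members passed under no alternative, and 18 of them changed sign in at least 1. The count tests edgeR and DESeq2 were not run; voom on the recovered reads, an alternative chosen after the data were seen, called 70 genes and Egln3 (adjusted p = 0.0142). Depth limits Adm and Car9, and shared sequence limits Gapdh, Pgk1, Pgam1, Eno1 and Bnip3. The stretch of Pax9 that the allele lacks is not known here.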

Other observations

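Genes of mitochondrial respiration, the other route by which cells use pyruvate, were mostly slightly lower in the null shelves, without passing the test. Of 26 listed and tested genes, 0 passed by limma or by voom and 5 had an unadjusted p under 0.05, all lower in null, beside 7.15% of all tested genes; 25 were below 0, beside 7374 of all 13600, with a median log2 change of −0.08 beside −0.01 for all tested genes. Cox6a1, a subunit of cytochrome oxidase, was at 108 ± 13.2 FPKM in null and 125 ± 14.1 in control (SD, n = 4 each), a log2 change of −0.21 (limma, adjusted p = 0.778). Cox5a, another subunit, was at 90.4, 87.1, 96.9 and 82.5 FPKM in null libraries 1 to 4, at 101 and 95.7 in wild-type libraries, and at 100 and 102 in heterozygotes, so that null 3 overlapped the controls, with a log2 change of −0.16 (adjusted p = 0.490). Summed over the list, FPKM ranged from 1842 to 2051 in null and from 1996 to 2160 in control libraries, which overlap.

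Cycs, which encodes the cytochrome c of all tissues, was listed at 0.971 ± 0.124 FPKM in null and 0.934 ± 0.232 in control (SD, n = 4 each), far below the other respiratory genes. Whether its coding windows occur in other genes was not checked, so this level is uncertain.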
